A study of Mus musculus with 12 samples.

Results

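The integrin and laminin chain genes are the receptors by which cells hold on to matrix and the core polymer of basement membranes. They were selected by symbol alone (Itga with a number or v, Itgb with a number, and Lama, Lamb or Lamc with a number), which gave 31 of the 24692 entries of the deposited table: 12 integrin alpha, 8 integrin beta, 5 laminin alpha, 3 laminin beta and 3 laminin gamma genes. An integrin is a pair of one alpha and one beta chain, and the pair sets which ligand is bound: collagen, laminin, or proteins such as fibronectin with an arginine-glycine-aspartate (RGD) site. A laminin is a trimer of one alpha, one beta and one gamma chain and is named by their numbers, so that laminin α5β1γ1 holds the products of Lama5, Lamb1 and Lamc1. In skin, basal keratinocytes are known to anchor to laminin through integrin α6β4 in hemidesmosomes, and dermal cells to reach collagen and fibronectin through beta 1 integrins.

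RNA was sequenced from 4 populations of cells that were sorted out of male mouse back skin at postnatal day 26 to 27, in early anagen, with 3 libraries each: dermal papilla (DP), dermal sheath (DS), hair follicle dermal stem cells (DSC) and interfollicular dermis (IFD). All 4 came from mice that carried the Sox2:GFP and aSMA:dsRed reporters, which mark cells by the Sox2 gene and by the smooth muscle actin promoter. The antibodies used in the sort are not named in the labels, nor is it said how many animals were pooled. Values are FPKM, fragments scaled to transcript length and to the fragments mapped in the library, so levels of different genes can be compared per length. Library values are given in the order DP 1, 2 and 4, DS 4, 5 and L1, DSC 1, 2 and 4, and IFD 1, 2 and 6, with L1 as the label writes it, and means are given ± SD (n = 3).

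The labels of 6 libraries went against their markers, and this touches every comparison with DS or IFD. Summed over 7 fibroblast markers, DP libraries held 9083 to 17720 FPKM, DS libraries 891.3 to 1700, DSC libraries 7551 to 9822 and IFD libraries 786.3 to 1259. The 7 basal keratinocyte markers summed to 609 to 1569 in DP, 1549 to 1722 in DS, 399.7 to 829 in DSC and 1472 to 1646 in IFD, and none of those 14 genes was listed at 0 in any library. The 4 suprabasal keratinocyte markers summed to 811.8 to 2681 FPKM in DP, 21.17 to 135.5 in DS, 360.5 to 662.5 in DSC and 165.3 to 311.8 in IFD, higher in DP and DSC than in DS and IFD. The 4 cycling markers summed to 7.875 to 18.67 FPKM in DP, 212.9 to 257.1 in DS, 9.857 to 33.17 in DSC and 143.4 to 168.4 in IFD, higher in DS and IFD. The DS and IFD libraries were thus low in fibroblast transcripts, and their basal keratinocyte sum was above that of DSC and DP 4. Their names are used here as labels only. DP 1 and 2 held a basal keratinocyte sum near theirs. Of the 7 basal genes, limma called 5 higher in DS and 6 higher in IFD than in DSC, but 2 and 3 than in DP. Krt14 averaged 79.2 FPKM in DS and 106 in DP, and Krt15 105 in IFD and 115 in DP. In sorted bulk RNA, fewer cells of a type and less RNA per cell cannot be told apart. Cell-type makeup was not tested as a part of any difference reported here. Scaling the libraries by median-of-ratios moved the median of all 12774 tested genes by between -0.24 (DS minus DSC) and 0.42 (DP minus DS) on the log2 scale, and no member call changed direction under it.

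Of the 31 genes, 29 reached 1 FPKM in at least 3 libraries and were tested; Itga4 (0.0704 to 1.11 FPKM over the 12 libraries) and Lama1 (0.00522 to 0.17) did not. Among the 4 populations 21 of the 29 differed by limma's moderated F test at an adjusted p of 0.05 or less, a share to be read against 56.8% of all tested genes. By mean level, 6 of the 31 genes were highest in DP, 9 in DS, 13 in DSC and 3 in IFD. Itgb1 had the highest mean of the 31 in each population, and Lamb1 the highest mean of the laminin genes. Pairwise tests placed 8 genes higher, and 3 lower, in DP and in DSC than in each of DS and IFD, as the heat map shows. How many of all tested genes met the same tests together was not counted.

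**Figure D1:**
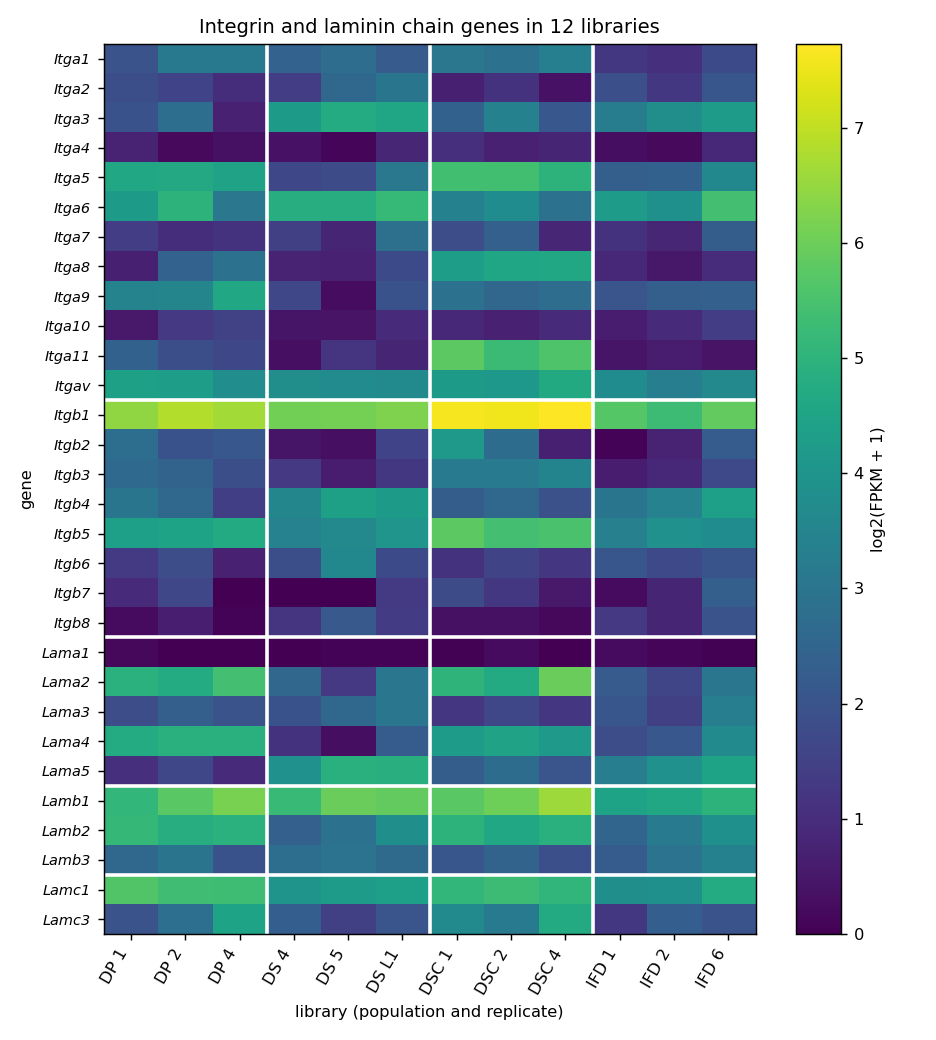
Each row is 1 of 30 genes and each column 1 of the 12 libraries, grouped as DP, DS, DSC and IFD, and the colour is log2(FPKM + 1). Itgb1 is bright in all 12 columns, Lama5 is brighter in DS and IFD, and Lama2 and Lama4 are brighter in DP and DSC.

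Among collagen-binding integrins Itga11 was far higher in dermal stem cells than elsewhere. Values in parentheses beside an adjusted p are log2 fold changes of FPKM + 1. Itga11, the alpha chain of a receptor for fibrillar collagen on fibroblasts (chromosome 9, 62677855 to 62783979, GRCm38.p6), read 4.25, 2.6 and 2.2 FPKM in DP, 0.251, 1.27 and 0.73 in DS, 54.1, 37.4 and 47.1 in DSC, and 0.35, 0.505 and 0.331 in IFD. The lowest DSC library lay above the highest of the other 9. Itga11 fell in DP against DSC by 3.57 on the log2 scale (SE 0.29, limma adjusted p = 4.57e-05) and in DS against DSC by 4.78 (adjusted p = 4.82e-07). DSC also exceeded IFD (5.07, adjusted p = 2.42e-07), and DP exceeded DS (1.21, adjusted p = 0.00454) and IFD (1.5, adjusted p = 0.00164). The DP over DS call ended without DP 1 and 2 together (adjusted p = 0.0822). Itga11 held 3.26% ± 1.41 of the summed integrin alpha FPKM in DP, 0.877% ± 0.62 in DS, 29.1% ± 4.73 in DSC and 0.667% ± 0.345 in IFD.

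The other collagen-binding alpha chains were lower than Itga11 in dermal stem cells. Itga1, whose pair with beta 1 binds collagen and laminin, read 2.91, 7.7 and 7.8 FPKM in DP, 4.39, 5.81 and 3.67 in DS, 7.44, 6.36 and 9.02 in DSC, and 1.39, 1.12 and 2.32 in IFD. The IFD libraries lay below all 9 others. Itga1 was higher in DP than in IFD (1.38, limma adjusted p = 0.00595) and in DSC than in IFD (1.74, adjusted p = 0.00171). Itga2, the collagen receptor chain of epithelium and platelets, averaged 1.85 ± 0.822 FPKM in DP, 4.53 ± 2.67 in DS, 0.706 ± 0.452 in DSC and 2.41 ± 0.914 in IFD, and rose in DS against DSC (1.59, adjusted p = 0.00807). Itga10, a collagen receptor chain of cartilage, stayed at or below 1.81 FPKM in every library and passed in no contrast.

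The sequence around the start of Itga11 is shown because this gene had the largest difference between DP and DSC. It runs from 250 bases before to 50 after the RefSeq start, at chr9:62677605-62677904 on the plus strand of GRCm38.p6, and was read 5′ to 3′.
Itga11: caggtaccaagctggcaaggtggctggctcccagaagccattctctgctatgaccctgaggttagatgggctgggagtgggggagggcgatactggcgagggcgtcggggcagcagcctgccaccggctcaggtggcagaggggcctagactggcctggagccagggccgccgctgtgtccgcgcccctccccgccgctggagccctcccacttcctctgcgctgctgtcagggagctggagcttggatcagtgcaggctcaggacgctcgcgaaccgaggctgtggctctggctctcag
It is 68% G and C with 16 CpG sites. No letters are in capitals, since none of 5 motifs searched on both strands was in this window: GGGCGG (the GC box), TGANTCA (AP-1), CAGACA (SMAD), CCAAT and the CArG box of serum response factor. Over all 32851 promoter windows of this length, 35.7% held GGGCGG, 7.81% TGANTCA, 21% CAGACA, 37.4% CCAAT and 1.63% a CArG box. Of the members, 20 had such a window (23 windows in all), and these motifs were in 11, 2, 7, 3 and 2 of the 23.

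Among receptors for RGD proteins, Itga8 was highest in dermal stem cells. Itga8, whose pair with beta 1 binds nephronectin and fibronectin (chromosome 2, 12106632 to 12301985), read 0.586, 4.38 and 6.44 FPKM in DP, 0.654, 0.626 and 2.3 in DS, 18.7, 22.1 and 23.9 in DSC, and 0.862, 0.415 and 0.993 in IFD. All DSC libraries were above the other 9. Itga8 was lower in DP (-2.49, SE 0.49, limma adjusted p = 0.00841) and in DS (-3.44, adjusted p = 0.000147) than in DSC, and higher in DSC than in IFD (3.69, adjusted p = 0.000108). The DP call ended when only those 2 populations were fitted (adjusted p = 0.0606) and without DSC 1 and 2 together (adjusted p = 0.13).

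Itga5, the alpha chain of the classical fibronectin receptor, read 23.5, 24.6 and 21.0 FPKM in DP, 2.21, 2.48 and 7.53 in DS, 40.9, 40.9 and 30.7 in DSC, and 4.03, 4.26 and 11.3 in IFD. DP and DSC libraries were all above DS and IFD libraries. Itga5 was higher in DP than in DS (2.39, limma adjusted p = 0.000385) and IFD (1.80, adjusted p = 0.00326), lower in DS than in DSC (-3.06, adjusted p = 7.58e-05), and higher in DSC than in IFD (2.47, adjusted p = 0.000456). Its DP and DSC libraries did not overlap, but that difference did not pass (-0.67, 95% interval -1.52 to 0.19, adjusted p = 0.313). The DP over IFD call ended without DP 1 and 2 together (adjusted p = 0.0518).

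Among the partners of the alpha v chain, the beta 5 and beta 3 genes went with Itga5 and the beta 8 gene against it. Itgb5, whose product binds vitronectin with alpha v, read 19.4, 21.2 and 25.2 FPKM in DP, 9.82, 11.3 and 15.3 in DS, 54.1, 42.0 and 44.9 in DSC, and 9.21, 13.9 and 12.5 in IFD. The order was DSC above DP above DS and IFD, and the last pair overlapped. It was lower in DP (-1.07, limma adjusted p = 0.0124) and DS (-1.88, adjusted p = 4.31e-05) than in DSC, and the DP call ended without DSC 1 (-0.96, adjusted p = 0.0607). Itgb3, the vitronectin receptor chain of platelets and osteoclasts, averaged 4.12 ± 1.34 FPKM in DP, 1.1 ± 0.53 in DS, 8.84 ± 1.26 in DSC and 1.21 ± 0.94 in IFD, and fell in DS against DSC by 2.26 on the log2 scale (adjusted p = 0.000257). Without IFD 1 its call between DP and IFD (1.26, adjusted p = 0.0112) ended (1.03, adjusted p = 0.0503), and without DP 1 and 2 together so did that between DP and DS (0.83 in place of 1.29, adjusted p = 0.181).

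Itgb8, which with alpha v activates latent TGF-beta, had its highest levels in DS and IFD. It read 0.179, 0.583 and 0.0472 FPKM in DP, 1.26, 3.49 and 1.61 in DS, 0.265, 0.269 and 0.112 in DSC, and 1.45, 0.744 and 2.95 in IFD. These are low levels, and DP and DSC libraries were all below DS and IFD libraries. It rose in DS against DSC (1.30, limma adjusted p = 0.0104), a call that ended without DS 5 (adjusted p = 0.0506), as did the call in DP against DS (adjusted p = 0.0542). Its call in DP against IFD (-1.04, adjusted p = 0.0323) ended without DP 1 or 4 or IFD 1 or 6 (adjusted p from 0.0642 to 0.121). That in DSC against IFD (-1.08, adjusted p = 0.0299) ended without any one DSC library or IFD 1 or 6 (adjusted p from 0.0619 to 0.111). Itgav itself was even, from 8.94 to 25.1 FPKM over the 12 libraries, and passed in DS against DSC (-0.62, adjusted p = 0.0481) and DSC against IFD (0.78, adjusted p = 0.0199). The DS call ended without any one of DP 2, DSC 1, 2 or 4, DS 4, 5 or L1, or IFD 1 or 6 (adjusted p from 0.0517 to 0.192), and the IFD call without DSC 4 (adjusted p = 0.0913) or IFD 2 (adjusted p = 0.077). Itgb6, the epithelial partner of alpha v, was at 11.1 FPKM in DS 5 and between 0.641 and 3.22 in the other 11 libraries, and passed in no contrast.

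Of the laminin-binding integrin chains, Itga3, Itga6 and Itgb4 had their highest means in DS and IFD. Itga3, the chain that with beta 1 binds laminin α5β1γ1, read 2.83, 5.93 and 0.632 FPKM in DP, 17.5, 25.7 and 22.6 in DS, 4.32, 9.43 and 3.31 in DSC, and 8.55, 13.2 and 18.4 in IFD. Every DS library was above every DP and DSC library, while IFD 1 lay below DSC 2. It was lower in DP than in DS (-2.69, limma adjusted p = 0.000654) and IFD (-1.98, adjusted p = 0.00593), and higher in DS than in DSC (1.87, adjusted p = 0.00755). The difference between DSC and IFD did not pass (-1.15, adjusted p = 0.0764).

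Itgb4, the hemidesmosomal beta chain (chromosome 11, 115974725 to 116008412), read 7.0, 5.11 and 1.68 FPKM in DP, 10.7, 20.01 and 17.5 in DS, 3.9, 4.95 and 2.8 in DSC, and 7.03, 9.8 and 19.7 in IFD. DS and IFD libraries were all above DP and DSC libraries, by a small margin between IFD 1 and DP 1. It was lower in DP than in DS (-1.70, limma adjusted p = 0.00616) and higher in DS than in DSC (1.79, adjusted p = 0.00548). Its calls against IFD, from DP (-1.26, adjusted p = 0.0336) and from DSC (-1.34, adjusted p = 0.0285), ended without IFD 6 (-0.87, adjusted p = 0.132, and -0.95, adjusted p = 0.111), without IFD 2 (adjusted p = 0.0615 and 0.0539) and under median-of-ratios scaling (adjusted p = 0.122 and 0.0539). Leaving out DP 4 ended the DP call (adjusted p = 0.125), and leaving out DSC 1 or 4 the DSC call (adjusted p = 0.0679 and 0.0889).

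Itga6, the partner of both beta 4 and beta 1 on laminin, read 17.5, 31.1 and 7.43 FPKM in DP, 27.2, 27.1 and 35.1 in DS, 9.57, 12.5 and 6.5 in DSC, and 18.4, 13.7 and 41.6 in IFD. DP ranged over DSC, DS and IFD levels. While Itgb4 was higher in DP 1 than in DP 2 (7.0 and 5.11 FPKM), Itga6 had another order. Over DP 2, 1 and 4 the order of Itga6 was that of the basal keratinocyte sum (1569, 1313 and 609 FPKM). A part of such cells in the Itga6 levels was not tested. Only its rise in DS against DSC passed (1.58, limma adjusted p = 0.0151), and that ended without DSC 4 (adjusted p = 0.0553) and without DSC 1 and 2 together (adjusted p = 0.0587). Itga7, the laminin receptor chain of muscle, read 1.64, 1.0 and 1.2 FPKM in DP, 1.75, 0.755 and 6.29 in DS, 2.58, 4.19 and 0.778 in DSC, and 1.21, 0.795 and 3.81 in IFD. The populations overlapped and it passed in no contrast.

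**Figure D2:**
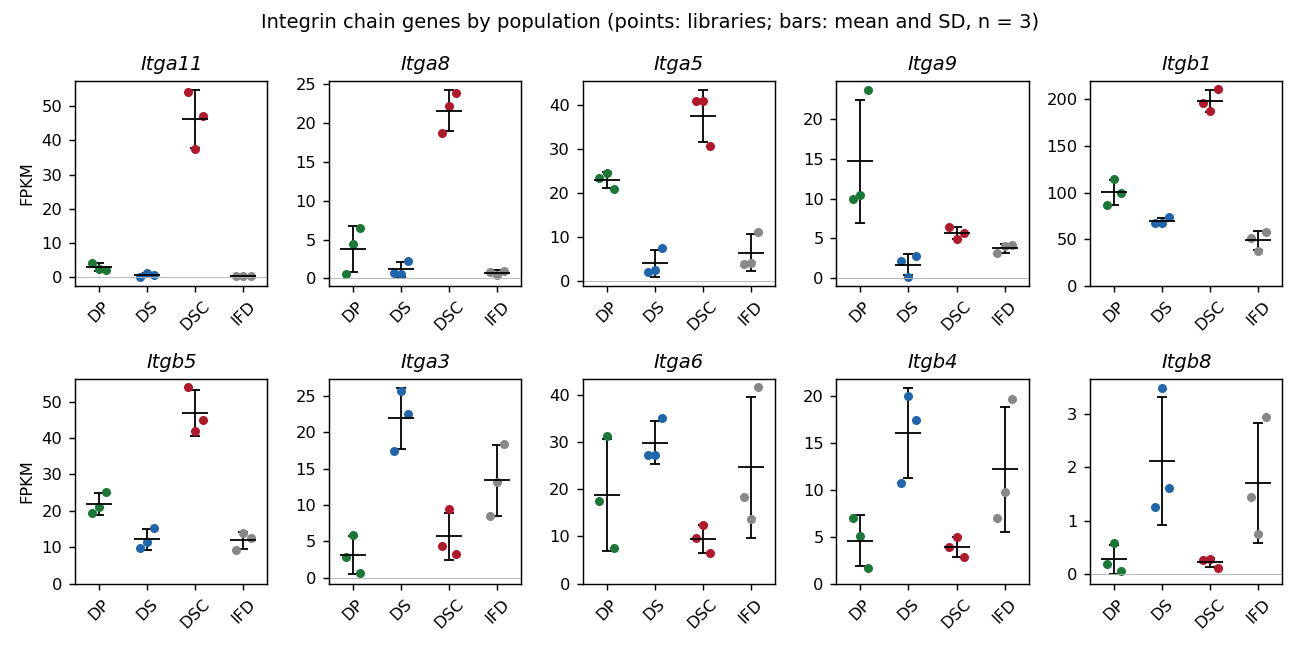
FPKM of 10 integrin genes by population, with points for libraries and black bars for the mean and SD of 3 libraries; each panel has its own linear axis. Itga11 and Itga8 have all 3 DSC points above the rest. Itga3, Itga6, Itgb4 and Itgb8 have their highest means in DS (21.9, 29.8, 16.1 and 2.12 FPKM).

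Itga9 and the low Itga10 were the integrin genes with their highest mean in dermal papilla. The pair of Itga9 with beta 1 binds tenascin C and osteopontin. Itga9 read 10.003, 10.4 and 23.6 FPKM in DP, 2.14, 0.202 and 2.82 in DS, 6.41, 4.88 and 5.72 in DSC, and 3.13, 4.07 and 4.16 in IFD. The DP libraries were above the other 9. It was higher in DP than in DS (2.58, limma adjusted p = 0.000339) and IFD (1.61, adjusted p = 0.00858), and lower in DS than in DSC (-1.45, adjusted p = 0.014), which ended without DS 5 (-0.94, adjusted p = 0.0581). The call against IFD ended with a pseudocount of 0.1 FPKM (1.82, adjusted p = 0.052). Against DSC the DP difference did not pass (1.13, 95% interval 0.23 to 2.04, adjusted p = 0.113), although it did without DS 5 (adjusted p = 0.0494).

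Itgb1, the beta chain shared by most of these alpha chains, read 86.7, 114 and 99.5 FPKM in DP, 67.2, 67.7 and 73.7 in DS, 196, 187 and 210.8 in DSC, and 50.9, 37.9 and 58.0 in IFD. The 4 populations did not overlap for this gene. It was lower in DP (-0.99, limma adjusted p = 0.0112) and DS (-1.5, adjusted p = 0.000111) than in DSC and higher in DP than in IFD (1.03, adjusted p = 0.00178). The DP call against DSC ended under quantile normalization (-0.68, adjusted p = 0.114). Relative to the sum of the 12 alpha genes in the same library, Itgb1 stood at 0.995 to 1.15 in DP, 0.726 to 0.941 in DS, 1.2 to 1.37 in DSC and 0.581 to 0.945 in IFD. In all 12 libraries Itgb1 exceeded each of the 12 alpha genes taken singly, so the alpha chain was the lower transcript of every alpha-beta 1 pair.

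The beta chains of leukocytes varied between libraries of 1 population. Itgb2 read 6.0, 2.84 and 3.24 FPKM in DP, 0.364, 0.242 and 1.93 in DS, 17.1, 5.58 and 0.59 in DSC, and 0.0447, 0.657 and 3.73 in IFD. Its DSC order was that of the summed leukocyte markers (822.7, 374.8 and 33.17 FPKM over 6 genes) and of Itgam, its alpha partner on myeloid cells (26.3, 11.03 and 0.477 FPKM). Ptprc, the pan-leukocyte gene, was at 16.7, 6.62 and 0.214 FPKM in the same libraries. Itgb7 was listed at 0 in DP 4, DS 4 and DS 5 and reached 4.09 FPKM in IFD 6. Neither beta gene passed in any contrast.

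The laminin alpha genes divided the populations into a Lama2 and Lama4 side and a Lama5 side. Lama2, the alpha chain of mesenchymal and muscle basement membranes (chromosome 10, 26981285 to 27617191), read 29.5, 25.8 and 41.7 FPKM in DP, 4.82, 1.43 and 7.11 in DS, 31.6, 25.4 and 61.6 in DSC, and 3.64, 2.07 and 7.2 in IFD. Lama4, the chain of vessel and mesenchymal basement membranes, read 25.9, 28.7 and 29.0 FPKM in DP, 1.2, 0.229 and 3.73 in DS, 17.7, 20.7 and 16.8 in DSC, and 2.54, 3.31 and 11.9 in IFD. For each gene all DP and DSC libraries were above all DS and IFD libraries. Lama2 was higher in DP than in DS (2.75, limma adjusted p = 0.000517) and IFD (2.74, adjusted p = 0.000753), and Lama4 likewise (3.62, adjusted p = 9.75e-05, and 2.31, adjusted p = 0.00277). In DS against DSC they fell by 2.96 and 3.05 on the log2 scale (limma adjusted p = 0.00036 and 0.000378). In DSC against IFD Lama2 was higher (2.95, limma adjusted p = 0.000478), as was Lama4 (1.73, adjusted p = 0.0151), whose call ended without IFD 1 (adjusted p = 0.0699) or IFD 2 (adjusted p = 0.061).

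Lama5, the alpha chain of the laminins under most adult epithelia (chromosome 2, 180176373 to 180225904), ran the other way. It read 1.09, 2.12 and 0.93 FPKM in DP, 14.1, 28.9 and 27.7 in DS, 3.86, 5.71 and 3.11 in DSC, and 8.87, 13.9 and 21.2 in IFD. The DP libraries lay below the DSC libraries, and both below the 6 DS and IFD libraries, which overlapped. It was lower in DP than in DS (-3.33, SE 0.36, limma adjusted p = 2.03e-05) and IFD (-2.67, adjusted p = 0.000145), higher in DS than in DSC (2.2, adjusted p = 0.000435) and lower in DSC than in IFD (-1.54, adjusted p = 0.00542). These 4 calls held under every alternative run. Between DP and DSC the difference did not pass (-1.14, 95% interval -1.92 to -0.35, adjusted p = 0.0715), although it did with a pseudocount of 0.1 FPKM (adjusted p = 0.0467).

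Within a library the shares of the alpha genes do not depend on scaling between libraries. Lama5 made up 2.19% ± 1.17 of the summed laminin alpha FPKM in DP, 67.7% ± 11.8 in DS, 7.12% ± 3.4 in DSC and 52.4% ± 12 in IFD. Lama2 made up 49.5% ± 6.77 in DP, 13.5% ± 8.68 in DS, 59.7% ± 13.8 in DSC and 14.7% ± 5.03 in IFD. Lama4 followed with 43.3% ± 4.28 in DP, 4.66% ± 3.77 in DS, 30.3% ± 9.19 in DSC and 17.9% ± 5.5 in IFD. The ratio of Lama5 to the sum of Lama2 and Lama4 was 0.0132 to 0.0389 in DP, 2.33 to 17.4 in DS, 0.0396 to 0.124 in DSC and 1.11 to 2.59 in IFD. The share of Lama3 was 4.93% in DP, 14.1% in DS, 2.67% in DSC and 14.5% in IFD, and that of Lama1 was at most 0.878% in any library.

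**Figure D3:**
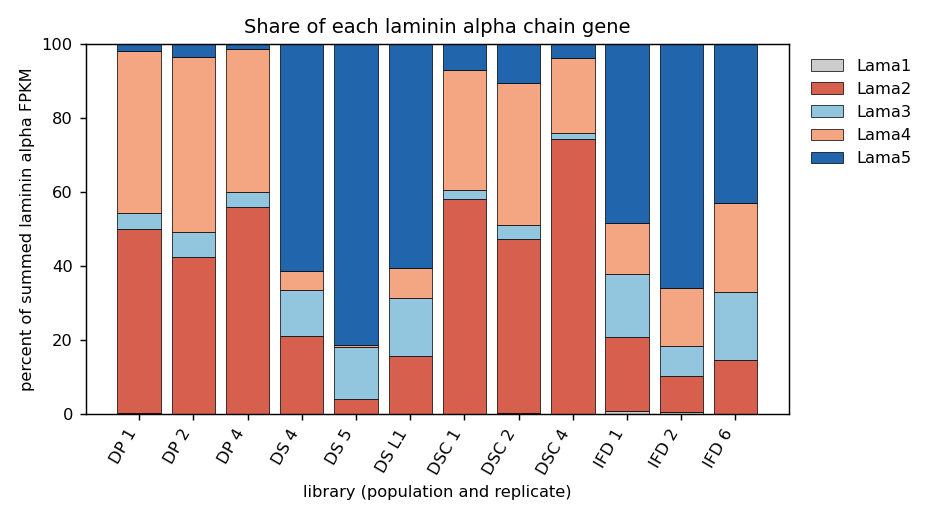
Each bar is 1 library, in the order DP, DS, DSC and IFD, and its segments are the percent of the summed FPKM of the 5 laminin alpha genes that each gene held. Lama5 is the largest segment in the 6 DS and IFD bars (43.0% to 81.3%) and at most 10.6% in the 6 DP and DSC bars.

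The windows around an annotated start of Lama2 and of Lama5 are shown because these alpha chains went in opposite directions. Their extent around that start is that given for Itga11, at chr10:27616893-27617192 and chr2:180225810-180226109 of GRCm38.p6, both on the minus strand. For both genes the start used lies inside the gene bounds given above, whose upper ends are 27617191 and 180225904. Nearly all of the Lama2 window thus lies within the gene. Capitals mark the motifs that were found.
Lama2: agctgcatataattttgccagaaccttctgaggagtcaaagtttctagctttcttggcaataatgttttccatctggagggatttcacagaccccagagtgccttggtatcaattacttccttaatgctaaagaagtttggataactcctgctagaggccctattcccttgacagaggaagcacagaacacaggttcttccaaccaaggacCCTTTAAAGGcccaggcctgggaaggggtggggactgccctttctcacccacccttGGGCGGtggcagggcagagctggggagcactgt
Lama5: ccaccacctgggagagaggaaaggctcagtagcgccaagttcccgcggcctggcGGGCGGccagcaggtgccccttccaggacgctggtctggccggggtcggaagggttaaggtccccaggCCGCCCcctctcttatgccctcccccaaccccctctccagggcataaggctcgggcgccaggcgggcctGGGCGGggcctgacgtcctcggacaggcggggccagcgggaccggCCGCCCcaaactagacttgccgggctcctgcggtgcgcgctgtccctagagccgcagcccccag
In Lama2 the capitals are a CArG box (the same on both strands) from 39 to 30 bases before the start used. GGGCGG lies from base 18 to 23 after that start. In Lama5 they are 4 GC boxes, on either strand. The windows are 50.3% and 72.7% G and C. These matches describe the letters, and no binding was measured.

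Among the laminin beta and gamma genes, Lamb2 and Lamc1 went with Lama2 and Lama4, while Lamb1 was abundant everywhere. Lamb1, the common beta chain, read 33.9, 52.4 and 71.0 FPKM in DP, 36.8, 60.8 and 57.8 in DS, 52.6, 63.6 and 96.0 in DSC, and 21.4, 23.7 and 30.8 in IFD. DP, DS and DSC overlapped, and IFD lay below all 9 others. It was higher in DSC than in IFD (1.42, limma adjusted p = 0.00363), and its call in DP against IFD (0.98, adjusted p = 0.0236) ended without DP 2, DP 4, IFD 1 or IFD 2 (adjusted p from 0.0557 to 0.0867).

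Lamb2, the beta chain of muscle, nerve and kidney basement membranes, read 34.3, 27.0 and 29.8 FPKM in DP, 4.18, 6.47 and 13.4 in DS, 30.7, 23.9 and 29.0 in DSC, and 4.77, 7.87 and 13.8 in IFD. DP and DSC overlapped, and both lay above all DS and IFD libraries. It was higher in DP than in DS (1.92, limma adjusted p = 0.00116) and IFD (1.78, adjusted p = 0.00263) and fell in DS against DSC by 1.80 on the log2 scale (adjusted p = 0.00211). The ratio of Lamb1 to Lamb2 was 0.99 to 2.38 in DP, 4.32 to 9.41 in DS, 1.72 to 3.31 in DSC and 2.23 to 4.48 in IFD, with near equal levels in DP 1.

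Lamc1, the gamma chain of most laminins, read 48.1, 40.3 and 39.4 FPKM in DP, 15.04, 18.1 and 19.49 in DS, 34.0, 37.9 and 32.8 in DSC, and 13.3, 13.8 and 25.9 in IFD. All DP libraries lay above all DSC libraries, and both above DS and IFD. It was higher in DP than in DS (1.24, limma adjusted p = 0.00122) and IFD (1.28, adjusted p = 0.00137). Lamc3, a gamma chain of few tissues, read 2.92, 6.07 and 21.5 FPKM in DP, 3.96, 1.75 and 3.14 in DS, 11.8, 7.99 and 25.6 in DSC, and 1.38, 4.0 and 2.92 in IFD. Replicate 4 was the highest library in DP and in DSC. Lamc3 was lower in DS than in DSC (-1.92, adjusted p = 0.0167) and higher in DSC than in IFD (2.01, adjusted p = 0.0155), and both calls ended without DSC 4 (-1.48, adjusted p = 0.0707, and 1.58, adjusted p = 0.0657). The DS call also ended without DS 5 (adjusted p = 0.064) and the IFD call without IFD 1 (adjusted p = 0.0665).

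Lama3 and Lamb3, chains known from epithelial basement membranes, gave 1 call over the 6 contrasts. Lama3 read 2.55, 4.01 and 2.9 FPKM in DP, 2.86, 4.92 and 7.26 in DS, 1.33, 2.15 and 1.35 in DSC, and 3.15, 1.74 and 8.94 in IFD. Lamb3 read 4.98, 6.89 and 2.87 FPKM in DP, 5.98, 6.67 and 5.35 in DS, 3.17, 4.51 and 2.69 in DSC, and 3.75, 6.76 and 9.63 in IFD. The populations overlapped for each gene, apart from DS above DSC for Lama3 and Lamb3 and DP above DSC for Lama3. Lamb3 passed in no contrast. Lama3 passed in DS against DSC alone (1.15, limma adjusted p = 0.0447), and leaving out DP 1, DSC 1, 2 or 4, DS 5 or L1, or IFD 1 ended that call (adjusted p from 0.0531 to 0.156).

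**Figure D4:**
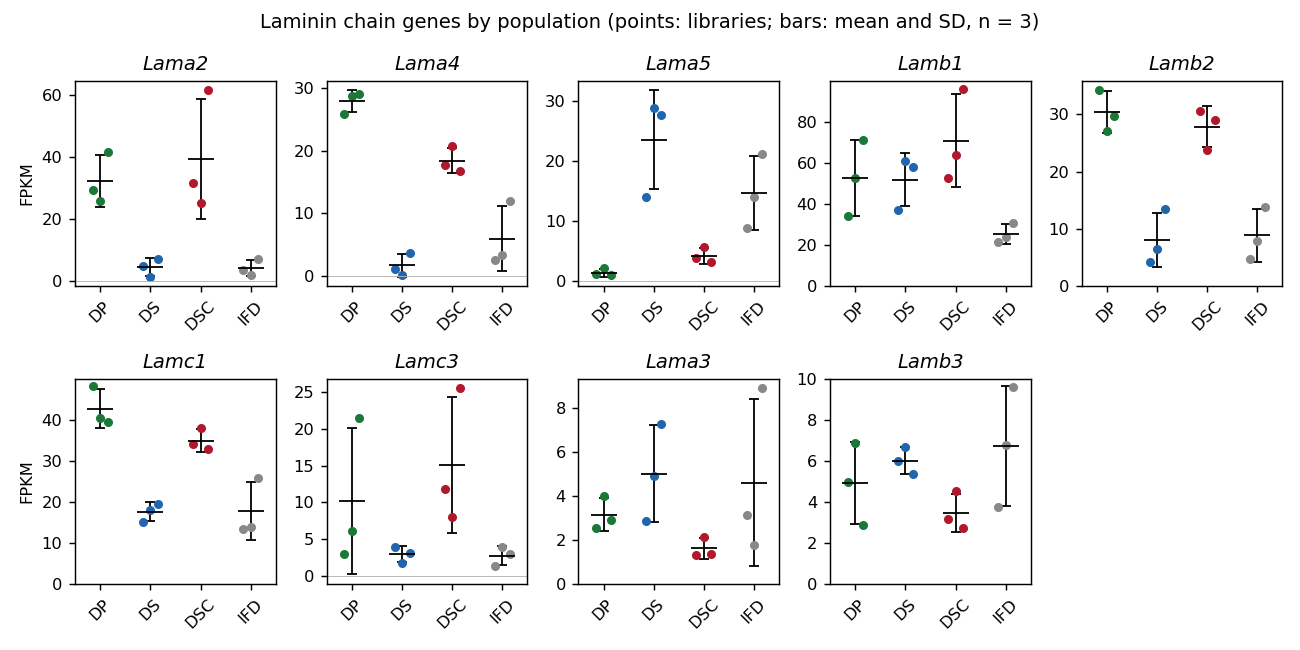
FPKM of 9 laminin genes by population, with points for libraries and black bars for the mean and SD of 3 libraries; each panel has its own linear axis. Lama2, Lama4 and Lamb2 have all DP and DSC points above the DS and IFD points, Lama5 has the reverse, and for Lamb3 DP, DSC and IFD overlap.

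To match receptors with ligands, the lowest chain transcript of each complex was taken in each library as a description of what the RNA levels would allow, since assembly and protein were not measured. For laminin α5β1γ1 this level was 1.38 ± 0.648 FPKM in DP, 17.2 ± 2.82 in DS, 4.22 ± 1.34 in DSC and 14.6 ± 6.19 in IFD, with Lama5 lowest in 9 of 12 libraries. Its receptor α3β1 stood at 3.13 ± 2.66 FPKM in DP, 21.9 ± 4.16 in DS, 5.69 ± 3.28 in DSC and 13.4 ± 4.91 in IFD, the same order of means. DS and IFD overlapped for each complex, and for α3β1 so did IFD with DSC and DSC with DP. Other pairings of Lama5 had other orders. Laminin α5β2γ1 stood at 1.38 FPKM by mean in DP, 8.01 in DS, 4.22 in DSC and 8.82 in IFD, with IFD highest. Integrin α6β1 averaged 18.7 FPKM in DP, 29.8 in DS, 9.51 in DSC and 24.6 in IFD, with DSC lowest. Integrin α6β4 had Itgb4 as its lower chain in all 12 libraries, at 4.6 ± 2.69 FPKM in DP, 16.1 ± 4.83 in DS, 3.88 ± 1.08 in DSC and 12.2 ± 6.67 in IFD. Itga6 was 2.5 to 6.09 times Itgb4 in DP, 1.36 to 2.55 times in DS, 2.32 to 2.52 times in DSC and 1.4 to 2.62 times in IFD.

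For the laminins with an alpha 2 or alpha 4 chain, ligand and receptor levels did not follow one order. Laminin α2β1γ1 stood at 31.6 ± 7.06 FPKM in DP, 4.45 ± 2.86 in DS, 29.9 ± 4.0 in DSC and 4.3 ± 2.63 in IFD, and laminin α4β1γ1 at 27.9 ± 1.73 in DP, 1.72 ± 1.81 in DS, 18.4 ± 2.04 in DSC and 5.91 ± 5.19 in IFD. Integrin α7β1, a receptor for laminin α2β1γ1 in muscle, was at 1.28 ± 0.329 FPKM in DP, 2.93 ± 2.95 in DS, 2.52 ± 1.71 in DSC and 1.94 ± 1.64 in IFD. Integrin α6β1, which binds laminin α4β1γ1 among others, was at 18.7 ± 11.9 FPKM in DP, 29.8 ± 4.58 in DS, 9.51 ± 2.98 in DSC and 24.6 ± 14.9 in IFD. By mean, α6β1 was below laminin α4β1γ1 in DP and DSC and above it in DS and IFD. This α6β1 level is all of Itga6, whose product also pairs with beta 4, and the division between the pairs was not measured. Laminin α1β1γ1 had almost no transcript of its alpha chain, with Lama1 at or below 0.17 FPKM in every library.

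In dermal papilla against dermal stem cells 4 integrin genes and no laminin gene passed. Of 19 tested integrin genes 4 were lower in DP (Itga8, Itga11, Itgb1 and Itgb5) and 0 higher, and of 10 tested laminin genes 0 passed. By limma's unadjusted p, 8 of the 29 genes were under 0.05, with Lama5 among them, and the matching share of all tested genes was not counted. The 4 calls compare with 8.69% of all tested genes called, 2.31% higher and 6.38% lower. The libraries of DP and DSC did not overlap for 11 of the 29 genes, beside 30.0% of all tested genes. Members had a median log2 fold change of -0.21, beside -0.25 over all tested genes. Of the 4 calls, that of Itga11 held under every alternative run, while those of Itga8, Itgb1 and Itgb5 ended without DSC 1 and 2 together (adjusted p = 0.13, 0.147 and 0.212), and those of Itgb1 and Itgb5 without DP 1 and 2 together (adjusted p = 0.0611 and 0.124). Quantile normalization ended the calls of Itgb1 and Itgb5 (adjusted p = 0.114 and 0.052). The 5 smooth muscle markers, with the reporter gene Acta2 among them, summed to 61.4 to 186.5 FPKM in DP, 104.2 to 340.2 in DS, 1495 to 1718 in DSC and 15.21 to 37.35 in IFD, and 4 of the 5 were lower in DP than in DSC. The 6 melanocyte markers summed to 192.8 to 812.5 FPKM in DP, 9.174 to 17.16 in DS, 13.84 to 84.28 in DSC and 151.9 to 927.7 in IFD. Of these, 4 of 6 were higher in DP than in DSC, as were 2 of 4 tested Schwann cell markers, 2 of 5 papilla markers, 2 of 7 basal keratinocyte markers (Perp and Epcam) and 1 of 4 suprabasal markers (Ivl). The part of these markers in the result was not tested. Intervals for the laminin chains were wide, such as -1.24 to 0.82 for Lama2 and -0.49 to 1.64 for Lama4, and a missed threshold does not show equal levels.

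In dermal sheath against dermal stem cells 20 of 29 genes passed, 7 higher and 13 lower, beside 43.9% of all tested genes, 24.3% higher and 19.6% lower. The 7 higher were Itga2, Itga3, Itga6, Itgb4, Itgb8, Lama3 and Lama5. The 13 lower included Itga5, Itga8, Itga11, Itgb1, Itgb5, Lama2, Lama4, Lamb2 and Lamc1. The libraries did not overlap for 23 genes, beside 58.7% of all tested genes. The median over members was -0.62, beside 0.13 over all tested genes. Of the marker lists, 7 of 7 fibroblast, 5 of 5 smooth muscle, 3 of 6 leukocyte, 3 of 5 papilla and 2 of 4 suprabasal keratinocyte genes were lower in DS than in DSC. In the same contrast 5 of 7 basal keratinocyte and 4 of 4 cycling genes were higher, and the part of these lists in the result was not tested. The forest plot shows these differences beside those for dermal papilla.

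**Figure D5:**
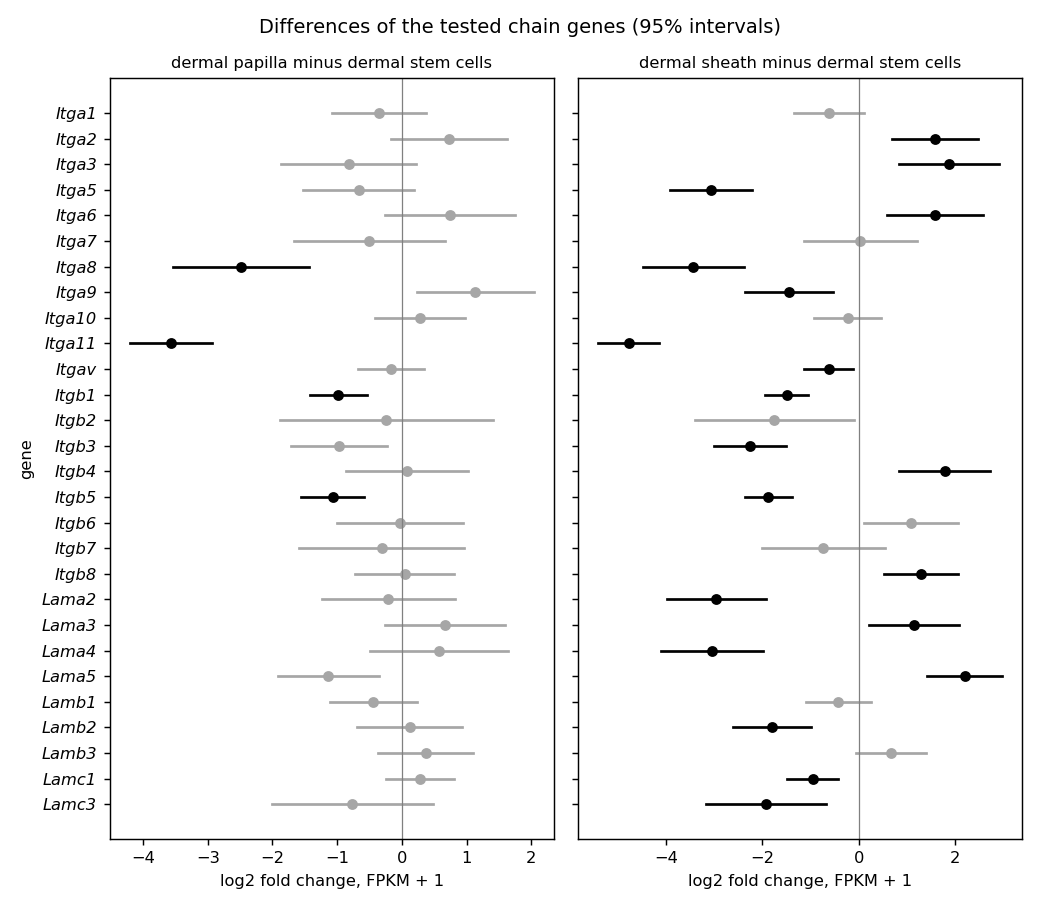
Log2 fold changes of 28 tested genes on the scale of FPKM + 1, with 95% intervals from the limma fit, for DP minus DSC (left) and DS minus DSC (right); black marks genes that passed and grey those that did not. On the left 4 genes are black and all lie below 0, and on the right 20 are black, 7 above and 13 below 0.

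Dermal papilla differed from dermal sheath in 13 of 29 genes, 9 higher and 4 lower (49.8% of all tested genes passed, 16.4% higher and 33.4% lower). The 4 lower genes were Itga3, Itgb4, Itgb8 and Lama5, and the libraries did not overlap for 15 genes (55.7% of all tested genes). Against interfollicular dermis, DP was higher for 12 genes and lower for 4 (42.3% of all tested genes, 13.7% higher and 28.6% lower), with the same 4 lower genes, and under median-of-ratios scaling the split was 14 and 2. The DP and IFD libraries did not overlap for 17 genes (48.5% of all tested genes). Dermal stem cells were higher than interfollicular dermis for 14 genes and lower for 3, namely Itgb4, Itgb8 and Lama5 (37.6% of all tested genes, 17.9% higher and 19.7% lower), and did not overlap for 21 (52.7% of all tested genes). These comparisons share libraries, so their lists are not independent. The 8 genes higher in DP and in DSC than in each of DS and IFD were Itga5, Itga11, Itgb3, Itgb5, Lama2, Lama4, Lamb2 and Lamc1. Under median-of-ratios scaling the calls over all genes were split as 3036 higher and 2340 lower for DP minus DS, 2554 and 2101 for DP minus IFD, 2597 and 1835 for DSC minus IFD, 2008 and 3007 for DS minus DSC, and 444 and 524 for DP minus DSC.

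Between dermal sheath and interfollicular dermis no integrin or laminin gene passed. None of the 29 passed with limma (0 called, beside 2.26% of all tested genes, 0.939% higher and 1.32% lower), and no other tool was run. By limma 5 had an unadjusted p under 0.05, and the matching share of all tested genes was not counted. Itga1 and Lamb1 were the genes with the largest positive differences, at 1.12 (95% interval 0.39 to 1.85, adjusted p = 0.119) and 0.99 (0.31 to 1.66, adjusted p = 0.134). Lama4 had the largest negative one, at -1.32 (-2.38 to -0.25, adjusted p = 0.211). The DS and IFD libraries did not overlap for 4 tested genes, Itga1, Itga9, Itgb1 and Lamb1, beside 21.6% of all tested genes. Leaving out DP 1 and 2 together, which removes no DS or IFD library, Itga1 passed (adjusted p = 0.0478).

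Partners of the integrins and laminins were counted from lists. Among 17 tested basement membrane partners 5 were lower in DP than in DSC, including Ntn4 (-2.37), a netrin that caps laminin networks, Egflam (-2.36), a dystroglycan ligand, and Npnt (-2.23), the α8β1 ligand nephronectin. In DS against DSC 8 of the 17 were lower and 2 higher, with Nid2 at -4.43 and Nid1 at -4.16, the nidogens that link laminin to collagen IV. Npnt and Itga8, a ligand and its receptor chain, were thus each lower in DP than in DSC. They did not run together in IFD, where Npnt averaged 8.47 and Itga8 0.757 FPKM, beside 2.12 and 3.8 in DP. Fn1, the gene of the α8β1 ligand fibronectin, ran the other way, with means of 223 FPKM in DP and 101 in DSC. The medians of this list were -0.47 and -1.09, beside -0.25 and 0.13 over all tested genes.

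Of 20 integrin adaptor genes 6 were lower in DP than in DSC, including Lims2 (-1.67), Ilk (-1.59) and Parva (-1.56), which encode parts of the complex that ties beta chains to actin. In DS against DSC 9 were lower and 2 higher, with Lims2 at -3.53 and the tensin gene Tns1 at -2.53. Of 8 tested collagen ligand genes 0 passed in DP against DSC with limma (1 had an unadjusted p under 0.05) and 8 were lower in DS, among them Col6a2 (-4.31) and Col3a1 (-4.30), with list medians of 0.50 and -3.92. Of 14 RGD and other ligand genes, 3 were higher and 3 lower in DP than in DSC, with Tgfb1 at -1.99 and Ltbp1 at 1.61, and 1 was higher and 8 lower in DS, with medians of 0.08 and -1.10. The adaptor medians were -0.62 and -1.18, all beside -0.25 in DP and 0.13 in DS over all tested genes. Of all tested genes 6.38% were lower and 2.31% higher in DP than in DSC, and 19.6% were lower and 24.3% higher in DS than in DSC.

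Other laminin receptor, sarcoglycan and hemidesmosome genes were counted in the same way. Of all tested genes 8.69% passed in DP against DSC. In DS against DSC 43.9% passed, 24.3% higher and 19.6% lower. A list of 7 tested genes joined laminin receptors outside the integrins with sarcoglycans, which are not themselves laminin receptors. Of these, 1 was lower in DP than in DSC (Sgcb, a sarcoglycan, -1.01). In DS against DSC 2 were higher and 3 lower, with the sarcoglycan gene Sgce at -3.33. Bcam, which binds Lama5-containing laminins, averaged 89.2 FPKM in DS and 21.4 in DSC (2.04, limma adjusted p = 0.00115), in the same direction as Lama5. Of the 5 hemidesmosome genes (Plec, Dst, Col17a1, Cd151 and Col7a1) 0 passed in DS against DSC with limma (1 had an unadjusted p under 0.05), while Cd151 was lower in DP than in DSC (-1.06). The medians in DP and in DS against DSC were -0.23 and 0.14 for the laminin receptor and sarcoglycan genes. For the hemidesmosome genes they were -0.16 and 0.22, and both pairs were near those of all tested genes. Of the 7 integrin chains that the symbol rule leaves out, 2 were tested, and 0 passed with limma in these comparisons (Itgam had an unadjusted p under 0.05 in DS against DSC).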

How the data were processed

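RNA from 12 libraries of 4 sorted populations was sequenced as SOLiD libraries, per the labels. The authors deposited 1 table of FPKM per gene and library. TopHat2 2.0.13, SAMtools, Cufflinks 2.2.1 and the mm10 build are listed in the submitters' processing notes without roles. Read counts behind each value are unknown. A relative depth, from the commonest ratio among genes under 0.3 FPKM, ran from 0.633 (DP 4) to 1.93 (IFD 6) of DSC 2.

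Genes with at least 1 FPKM in 3 libraries (12774) entered the fit as log2(FPKM + 1), made with the limma package (3.58.1, under R 4.3.3) with 4 population means, mean-variance trend and Benjamini-Hochberg adjustment over all tested genes per contrast. Fold changes on this scale understate changes of low genes. Tests are two-sided with a threshold of 0.05. The code was tested on simulated data. No label gives the animals behind a replicate, and the p-values therefore reflect only how far these libraries spread, which may be technical.

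Members come from the symbol rule; 1 member entered the fits and counts but is not reported here. Members and lists were chosen with earlier results of these data known. Named list genes are up to 3 with the largest change among those passing in DP minus DSC or DS minus DSC. An older symbol was used for 2 list genes, and Flg was not analysed here. Positions and promoter windows are from RefSeq, GRCm38.p6, matched by Entrez identifier. Same-numbered DP and DSC libraries deviated together (correlations 0.306, 0.241 and 0.389, against -0.333 to 0.125 for different numbers), so a fit with the number as a block was run beside the reported fit, which has no block.

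Alternatives were pseudocounts of 0.1 and 0.5, no filter and 5 FPKM, quantile and median-of-ratios scaling, and no trend. Others were each library left out, the compared populations alone, and a replicate block on numbers found in both compared populations. Leaving out pairs of libraries was chosen after seeing the data.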

Additional observations from a re-analysis of the deposited data

How the results depend on the processing

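All 70 calls of a member in a contrast kept their direction under every alternative run, and 43 of them stayed past the threshold in each. Leaving out each library in turn gave 18 to 22 members by the F test, 3 to 5 for DP minus DSC, 15 to 20 for DS minus DSC, 12 to 16 for DP minus DS, 14 to 19 for DSC minus IFD, 13 to 17 for DP minus IFD and 0 in each case for DS minus IFD. For DP minus DSC quantile normalization gave 2 members and leaving out DSC 1 and 2 together, the libraries with the most leukocyte transcripts, gave 1. For DS minus IFD, leaving out DP 1 and 2 together gave 1 (Itga1, adjusted p = 0.0478). Without DSC 1 and 2, DS minus DSC gave 14 and DSC minus IFD 12, from fits with 1 DSC library that is assumed to vary like the others. The calls that ended were those of Itga6, Itga9, Itgav, Itgb8, Lama3 and Lamc1 (adjusted p = 0.129) in DS minus DSC and of Itgb4, Itgb8, Lama4, Lamb2 (adjusted p = 0.0675) and Lamc1 (adjusted p = 0.127) in DSC minus IFD. The causes were not tested. With the replicate block, DP minus DSC kept 4 members called and no call there changed. In the comparisons with IFD the libraries share only a number, and deviations of same-numbered libraries correlated at -0.191 to 0.0497. There the block fit left out IFD 6, DSC 4 and DP 4, whose numbers have no match, so fewer libraries entered it. It gave 16 for DSC minus IFD, where the calls of Itgav, Itgb4 and Itgb8 ended. For DP minus IFD it gave 14, and the calls of Itgb4, Itgb5 (0.79, limma adjusted p = 0.0914), Itgb8 and Lamb1 ended. Over all genes, DP minus DSC gave 658 calls with the block, 512 in the 2 populations alone and 182 without DSC 1 and 2, beside 1110. Depth is unknown beyond a relative scale, so low genes such as Itgb8, Itga4 and Lama1 rest on an unknown number of reads.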
